A study of Mus musculus with 2 samples.

Results

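G protein coupled receptors named for a transmitter, hormone, lipid, protease or orphan number were examined in cultured expandable hepatoblasts, progenitors taken from C57BL/6 mouse liver. They were chosen by the array's own gene names, namely Gpr with a number, Gprc, P2ry, F2r, Ptger, Adora, Adra and Adrb, Htr, Oxtr, Avpr, Ednr, Chrm, the melanocortin, neuropeptide Y and somatostatin receptors, with P2ry5 and Gpr49 left out. This rule took 241 of 41158 gene probes, which belong to 167 gene names; the arrays hold 20054 named genes in all. Total RNA of 1 culture at passage 5 and of 1 culture at passage 20 was hybridised to 1 Cy3 array each. Both cultures grew in a defined medium with 10 ng/ml EGF, 3 μM CHIR99021 (a GSK3 inhibitor), 2 μM E-616452 (which blocks the type I receptor for TGF-beta), S1P at 0.5 μM and LPA at 5 μM, beside insulin, transferrin, selenite, 5 mM nicotinamide, phosphoascorbate and albumin. They were grown on Matrigel or laminin and split 1:6. LPA and S1P are themselves ligands of G protein coupled receptors, and the name rule does not take the receptors named for them. The passages came from separate experiments, so passage and experiment cannot be told apart, and no difference below has a replicate check or a test.

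These receptors cross the plasma membrane several times and, once a ligand binds outside, switch on a heterotrimeric G protein inside. Gs raises cyclic AMP through adenylyl cyclase and Gi lowers it, while Gq acts through phospholipase C and calcium. Receptor kinases and arrestins end the signal, and RGS proteins speed the shut-off of the G protein. In liver, adrenergic, vasopressin and nucleotide receptors are known for control of glycogen breakdown and of bile duct secretion.

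A level is the log2 signal of a gene's brightest probe after subtracting its array's 75th percentile, a difference is passage 20 minus passage 5, and a gene counted as different at 2-fold. A gene is called not detected here where that probe did not stand well above background at either passage. At passage 5, 45.5% of gene probes stood well above background, and 46.1% did so at passage 20. Of 10 hepatoblast markers 9 were above background, with a summed level (the 75th percentile signal being 1) of 937 at passage 5 and 896 at passage 20. The probes of Krt8, Krt18 and Krt19 make up most of this sum. Each summed level here adds all genes of its list on the array, those not detected included. Cdh1 was 2.89-fold higher and Epcam 2.24-fold lower at passage 20, Afp differed by 0.09 and Dlk1 was not detected. Of 6 hepatocyte markers Apoa1 alone was measured, at passage 5 only (summed level 0.445 and 0.250), and Alb was not detected. None of 6 endothelial markers was detected (summed level 0.217 and 0.244). Of 6 leukocyte markers 2 were, Cd68 and Cd3e (summed level of all 6 0.690 and 0.870). Of 5 neural markers 1 was, Tubb3 (summed level of all 5 0.647 and 0.891). Of 7 stellate and fibroblast markers Dcn alone was above background, at passage 5 only (summed level 2.00 and 0.235). All 3 mesothelial markers were above background at passage 5. Their summed level was 159 there and 221 at passage 20, most of it from Msln (log2 level 7.31 and 7.79). Wt1 and Upk3b were not above background at passage 20, at least 2.02-fold and 4.34-fold lower. Sex-linked RNAs differed, with Xist higher by 5.19 log2 at passage 20. Ddx3y and Eif2s3y were above background at passage 5 only, lower at passage 20 by at least 21.4-fold and 20.5-fold. A difference in sex or donor between the cultures cannot be told apart from passage in any value below. What part these differences between the cultures have in the values below was not tested. In such bulk RNA, fewer cells of a type and less RNA per cell cannot be told apart.

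Most of the receptor genes lay below the array's sensitivity. Of 167 genes, 127 were not detected, 28 were above it on both, 6 at passage 5 only and 6 at passage 20 only. The 40 measured genes are 24.0% of the group, whereas 58.8% of all named genes were measured. Of the 40, 7 are multipass proteins of Golgi or lysosome or without established coupling to G proteins, and 1 is a receptor kinase. For a gene measured at 1 passage alone a bound is given, its bright value against the higher of the dim value and the lowest detected level of the dim array (-3.32 at passage 5, -3.17 at passage 20). A probe above these levels can still fail detection, as did that of Mc3r (-3.10 and -2.98). The bounds, given as "at least" a fold, are therefore not strict limits. Genes measured at 1 passage alone made up 30% of the measured receptor genes and 8.89% of all measured genes. Many receptor probes were dim: 12 of the 40 reached less than 1 log2 above the lowest detected level on their brighter array.

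**Figure D1:**
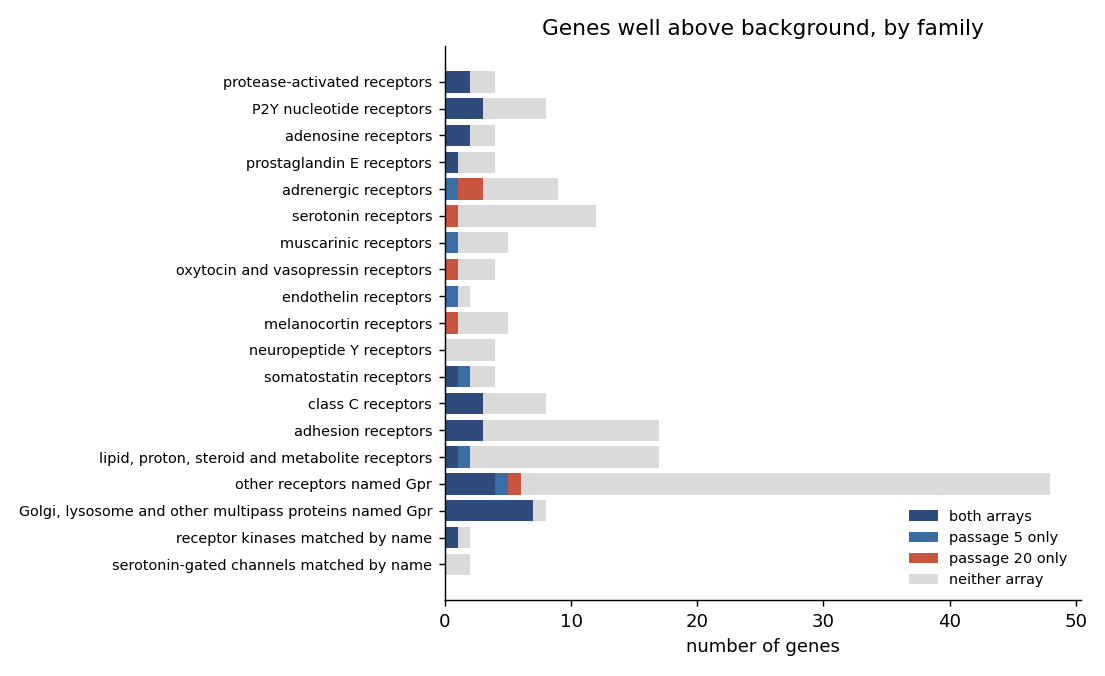
Number of genes per family (x axis), coloured by the arrays on which the brightest probe was well above background. Grey marks genes not detected; these are all 4 neuropeptide Y receptors and 42 of 48 other receptors named Gpr, while 7 of 8 multipass proteins of Golgi and lysosome were above background on both arrays.

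Between the cultures, 5 receptor genes had 2-fold or more signal at passage 20, 3 were lower by as much, and 23 measured on both arrays were within 2-fold. Another 9, measured on 1 array, have bounds under 2-fold, which do not show how large their differences are. The higher genes were the thrombin receptor F2r, the UDP receptor P2ry6, the oxytocin receptor Oxtr, the prostaglandin E receptor Ptger4 and the corticotropin receptor Mc2r. The lower genes were the orphan class C receptor Gprc5b, the adenosine receptor Adora1 and the orphan receptor Gpr176. As shares of the 40 measured genes that the name rule took these are 12.5% higher and 7.50% lower, or 20% in either direction. The 7 multipass proteins and 1 receptor kinase among the 40 were all within 2-fold. Over all 11798 measured genes the shares were 3.26% higher, 5.74% lower and 9.00% in either direction. With both arrays above background, 3 of 28 receptor genes were higher and 2 lower, where 6.46% of all genes differed in either direction. With normexp background correction 3 of 40 were higher and 1 lower, where 5.52% of all genes differed. With median centring, loess and spike-in scaling 3 receptor genes were higher and 5 lower. The median difference of the 40 receptor genes was 0.14 log2, and that of all measured genes 0.07. Of the 40, 24 had a positive difference, but the balance of signs followed the scaling: with median centring 15 were positive and the median was -0.17, and with spike-in scaling 17 were positive and it was -0.08.

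F2r, P2ry6 and Oxtr were more than 2-fold higher, and Gprc5b more than 2-fold lower, under every processing alternative that gave them a value. Adora1 passed 2-fold in 10 of 11 alternatives and Gpr176 in 9 of 10, both failing with normexp background correction. Ptger4 (4 of 11) and Mc2r (4 of 10) lay at the line. The values nearest it were 1.01 for Ptger4, -1.08 for Adora1 and the bounds of -1.04 for Gpr176 and 1.05 for Mc2r. Just short of it were -0.87 for Adra1b (a bound) and -0.82 for P2ry1. Repeat spots were read from probes with at least 8 spots on each array, above background in every spot on both. Among 13 such probes with a mean level under -1 log2, the SD of the log2 difference between repeat spots had a median of 0.16 and reached 0.27. For 114 such probes of any level the median was 0.04. Repeat spots show technical error only, and these do not cover genes below background on 1 array.

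**Figure D2:**
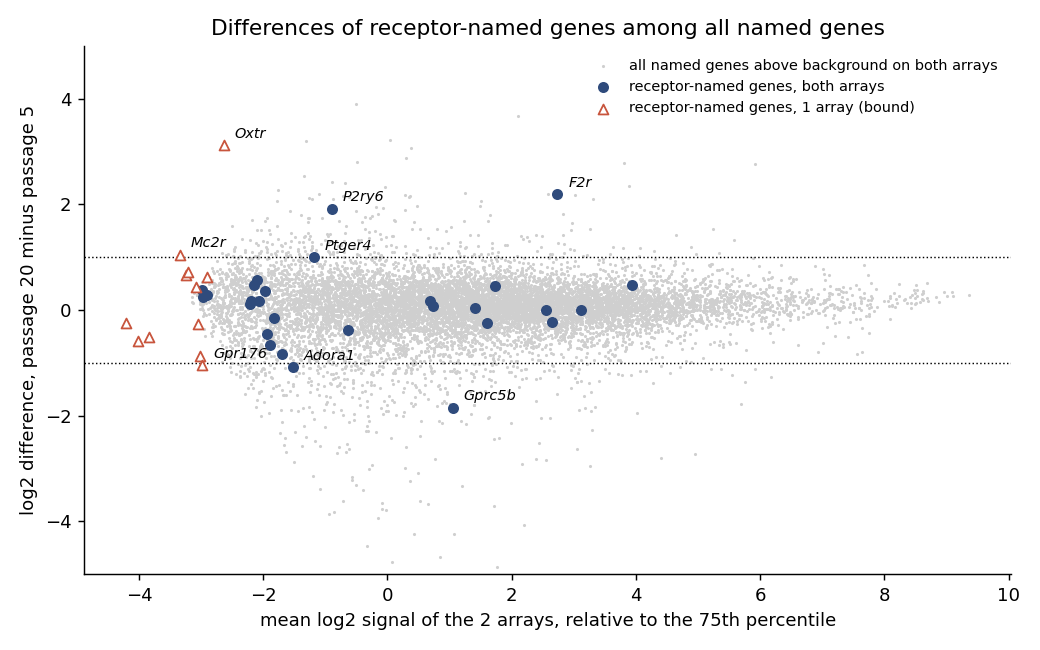
Log2 difference, passage 20 minus passage 5 (y axis), against the mean log2 level of the arrays (x axis), for all named genes above background on both arrays (grey; 3 lie outside the plotted range), receptor genes on both (filled) and receptor genes on 1 array, drawn at their bound (triangles). The dotted lines mark 2-fold; Oxtr, F2r and P2ry6 lie above the upper line and Gprc5b below the lower one.

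F2r, Oxtr and Gprc5b were more than 2-fold different under every processing alternative that gave them a value, Oxtr by 1 of its 2 probes. They also have an entry in the RefSeq promoter table (GRCm38.p6). Sequences just before the start sites of these 3 genes are shown, so that the base composition of these starts can be seen. Each runs 250 bases, 5′ to 3′ towards the gene on the minus strand, and capitals mark matches to the motifs searched. F2r lies at chr13:95618467-95618716, Oxtr at chr6:112489826-112490075 and Gprc5b at chr7:118995212-118995461.
F2r: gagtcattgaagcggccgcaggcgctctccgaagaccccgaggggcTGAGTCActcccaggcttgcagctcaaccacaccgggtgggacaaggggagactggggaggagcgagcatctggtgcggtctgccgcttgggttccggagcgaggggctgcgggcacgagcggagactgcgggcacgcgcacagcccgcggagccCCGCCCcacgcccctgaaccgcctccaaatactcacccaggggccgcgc
Oxtr: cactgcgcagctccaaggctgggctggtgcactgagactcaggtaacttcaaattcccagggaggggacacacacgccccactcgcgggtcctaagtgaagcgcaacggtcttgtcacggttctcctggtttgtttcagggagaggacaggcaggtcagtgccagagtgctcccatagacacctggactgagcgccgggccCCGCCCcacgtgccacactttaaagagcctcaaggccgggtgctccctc
Gprc5b: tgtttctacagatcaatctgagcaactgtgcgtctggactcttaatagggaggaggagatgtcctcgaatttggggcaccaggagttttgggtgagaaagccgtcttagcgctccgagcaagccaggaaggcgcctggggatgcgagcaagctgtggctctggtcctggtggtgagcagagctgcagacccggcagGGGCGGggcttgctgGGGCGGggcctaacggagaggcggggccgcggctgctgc

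Against a median of 6 CpG over all promoters and 16 over entries of all measured named genes, F2r has 24, Oxtr 12 and Gprc5b 14. The capitals in each mark GC boxes (GGGCGG on either strand), and in F2r also an AP-1 site (TGANTCA) whose first base lies 204 bases before the start. Of the 8 2-fold genes 6 have an entry, with 7 entries in all, and 6 of these entries hold a GC box. Of the 40 entries of measured receptor genes 52.5% hold one, of those of all measured named genes 57.7%, and of all 32851 promoters 32.7%. The CRE core (TGACG), through which cyclic AMP acts, was in none of these 7 entries. It was in 30% of the entries of measured receptor genes, 26.6% of those of all measured named genes and 17.8% of all promoters. TEAD (GGAATG) was found in 1 of the 2 entries of Adora1 (12.6% of all promoters), and the TATA box (TATAAA) in none (12.4%). AP-1 stood in F2r and in 1 entry of Adora1 (6.75%). These motifs do not contain one another. A match is a description of letters, not of a bound factor. The measured receptor genes had a median of 16.5 CpG per entry and those on neither array 5. Among all named genes the medians were 16 and 4, so that this split was common to the array.

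Protease-activated receptors, which are switched on when a protease cuts their outer end, held the largest difference among receptor genes above background on both arrays. F2r, cut by thrombin, had a log2 level of 1.63 at passage 5 and 3.83 at passage 20. Its signal was thus 4.59-fold higher at passage 20 (2.20 log2, 1.89 to 2.20 over 11 alternatives), by a single probe at chromosome 13, 96371902 to 96371961 (mm9). F2rl1, which trypsin-like proteases cut, is the next coding gene on that chromosome, and its levels were -2.15 and -1.79, a difference of 0.36. F2rl2 and F2rl3, relatives that thrombin also acts through, were not detected. The tissue factor gene F3, whose product starts the reactions that form thrombin, had 0.86 at passage 5 and 1.92 at passage 20. F3 was thus 2.09-fold higher at passage 20 (probes 1.06 and 1.10), and passed 2-fold in 7 of 11 alternatives. The prothrombin gene F2 was not detected.

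Most P2Y receptors sense nucleotides outside the cell, and 3 of the 8 P2ry genes that the rule took were measured, each with its own pattern. P2ry6, which binds UDP, had levels of -1.86 and 0.06 and was 3.79-fold higher at passage 20 (1.92 log2, 1.61 to 1.93 over the alternatives). P2ry2, which binds ATP and UTP and is its neighbour on chromosome 7, had 0.70 and 0.78, a difference of 0.08; a dimmer probe was above background at passage 5 only, with a bound of -0.54. P2ry1, which binds ADP, had -1.29 and -2.12, a difference of -0.82 that reached 2-fold with median centring and spike-in scaling (2 of 11 alternatives). P2ry4, P2ry10, P2ry12, P2ry13 and P2ry14 were not detected. The probe of P2ry6 lies at chromosome 7, 108086149 to 108086208 (mm9).

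Of the 4 adenosine receptors, the Gi-coupled Adora1 and the Gs-coupled Adora2a were measured. Adora1 had levels of -0.98 and -2.06 and was 2.11-fold lower at passage 20, and a further probe, above background at passage 5 only, gave a bound of -1.81; its remaining probe was not detected. Adora2a had 0.60 and 0.77, a difference of 0.17, but its other probe, above background at passage 5 only, had a bound of -0.89. The probes of Adora2a thus point in opposite directions, as do those of P2ry2, Gprc5c and Gpr107, which makes 4 of the 7 genes with a further measured probe. Ada, which breaks adenosine down, was 2.25-fold higher at passage 20 (levels 1.11 and 2.28), past 2-fold in 9 of 11 alternatives. Nt5e, which makes extracellular adenosine, was not detected.

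Among prostaglandin E receptors, the Gs-coupled Ptger4 alone was above background. Its levels were -1.69 and -0.68, 2.01-fold higher at passage 20 (1.01 log2, 0.69 to 1.01 over the alternatives), and its other probe was not detected. Ptger1, Ptger2 and Ptger3 were not detected. The cyclooxygenase gene Ptgs1, an early step of prostaglandin synthesis, was lower at passage 20 by 3.14-fold (levels 1.27 and -0.38), whereas Ptgs2, its inducible relative, differed by 0.50. Ptges, a prostaglandin E synthase, was above background at passage 5 only, with a bound of -0.66.

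**Figure D3:**
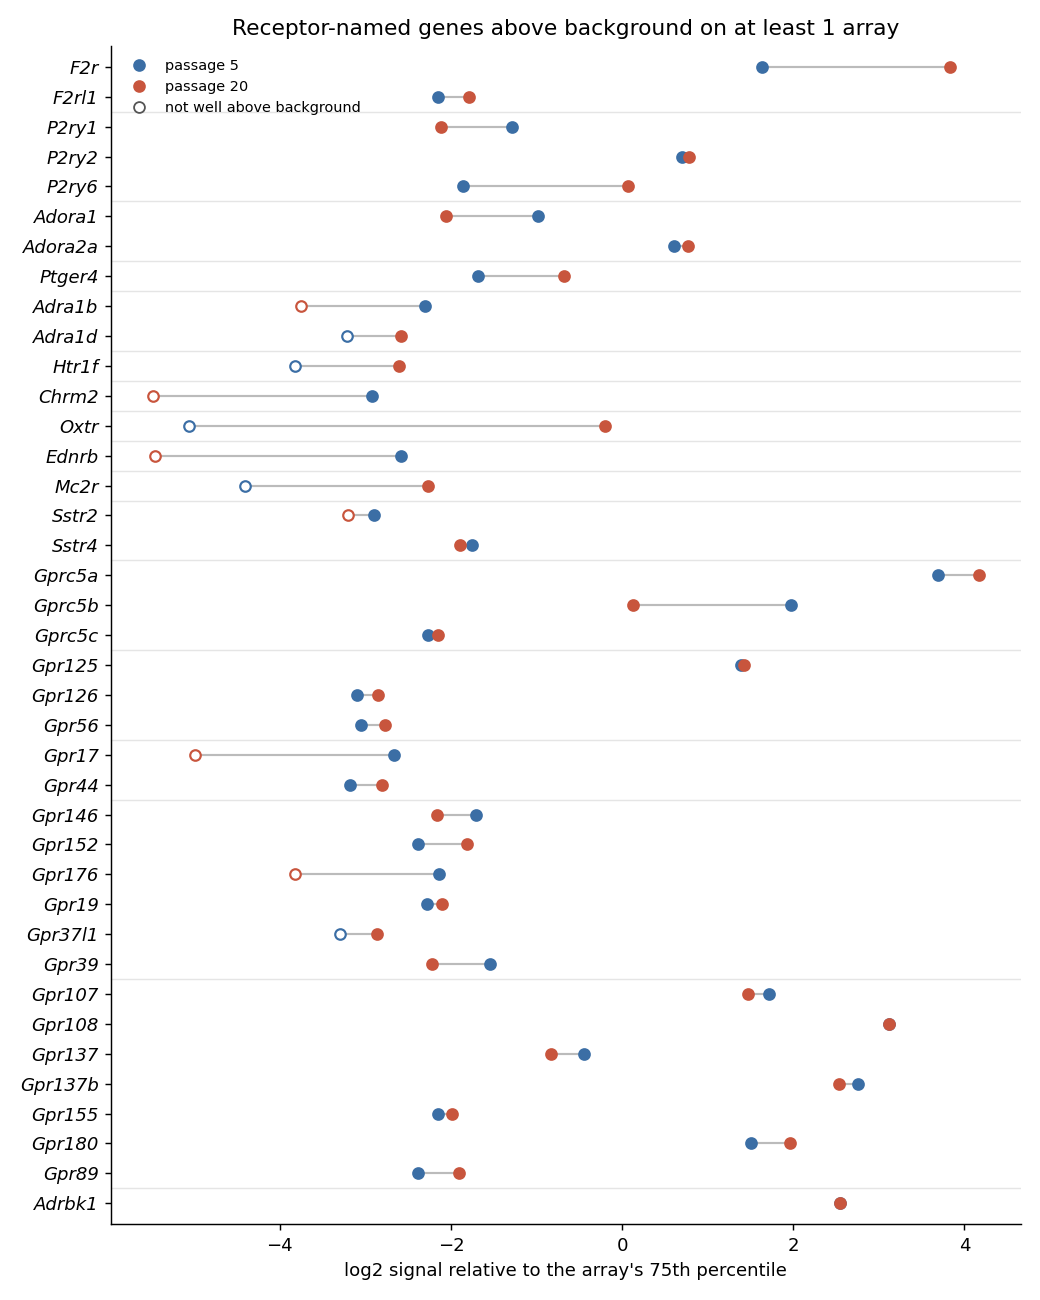
Log2 level at passage 5 (blue) and passage 20 (red) of the receptor-named genes that the text names as above background on at least 1 array (y axis), in family order; open symbols were not well above background. The x axis is the log2 signal relative to the array's 75th percentile, and each row can be read only within its own gene. The long lines of F2r, P2ry6 and Oxtr run to the right and that of Gprc5b to the left.

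Oxtr had the widest gap of the peptide hormone receptors. This Gq-coupled receptor had a log2 level of -5.06 at passage 5, not well above background, and -0.20 at passage 20. It was at least 8.70-fold higher at passage 20 (a bound of 3.12 log2), by a probe at chromosome 6, 112426025 to 112426086 (mm9). Its other probe, at 112438974 to 112439033, was not detected (-5.38 and -5.23), so the difference rests on 1 of 2 probes. The vasopressin receptors Avpr1a, Avpr1b and Avpr2 and the ligand genes Oxt and Avp were not detected. Mc2r, the corticotropin receptor of the adrenal gland, had -4.40 (not above background) and -2.27, at least 2.07-fold higher at passage 20. Mrap, which carries that receptor to the cell surface, was not detected, nor were the other 4 melanocortin receptors.

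Among other peptide receptors no difference or bound reached 2-fold. Ednrb, an endothelin receptor, had -2.59 at passage 5 and -5.45 at passage 20, where it was not above background; its bound was -0.59. Ednra was not detected. The endothelin gene Edn2 was at least 5.19-fold lower at passage 20 (-0.80, and -5.35 below background), while Edn1 differed by 0.74. Sstr2 and Sstr4, Gi-coupled somatostatin receptors, had a bound of -0.27 and a difference of -0.15, and Sstr1 and Sstr3 were not detected. None of the 4 neuropeptide Y receptors was above background, although the ligand gene Npy was measured at passage 5 and was at least 13.1-fold lower at passage 20 (0.54, and -4.51 below background).

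Receptors for amine transmitters were mostly not detected, and no bound among the rest reached 2-fold. Among the adrenergic receptors, Adra1b and Adra1d were each measured on 1 array only. The Gq-coupled Adra1b had -2.30 at passage 5 and -3.75, below background, at passage 20, a bound of -0.87 that passed 2-fold in 6 of 10 alternatives. Adra1d had -3.22 (below background) and -2.59, a bound of 0.63. Of 12 serotonin receptors only the Gi-coupled Htr1f was measured (-3.82, below background, and -2.60; bound 0.71). Of 5 muscarinic receptors only Chrm2, also Gi-coupled, was measured (-2.92, and -5.49 below background; bound -0.25).

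The class C group, relatives of the glutamate receptors, held 2 paralogues with differences of unlike sign. Gprc5b had levels of 1.98 at passage 5 and 0.13 at passage 20 and was 3.59-fold lower at passage 20 (-1.85 log2, -2.16 to -1.74 over 11 alternatives), by a single probe at chromosome 7, 126115825 to 126115884 (mm9). Gprc5a, known as a gene induced by retinoic acid, had 3.69 and 4.17, a difference of 0.48, and its other probe gave 0.56. Gprc5c had -2.26 and -2.15, with its probes at 0.12 and -0.25. Gprc5d, Gprc6a, Gpr158 and Gpr179 were not detected.

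Adhesion receptors, which carry long extracellular stalks that cut themselves, were measured in 3 of 17 cases and were within 2-fold. Gpr125 (now Adgra3) had 1.39 and 1.43, a difference of 0.04. Gpr126 (Adgrg6) and Gpr56 (Adgrg1), both close to the detection limit, differed by 0.24 and 0.28. The signs of these 3 turned with median centring (-0.27, -0.07 and -0.03). Among 17 receptors for lipids, protons, steroids and metabolites, Gpr44 (Ptgdr2, a prostaglandin D2 receptor) differed by 0.37 and Gpr17 had a bound of -0.50. The remaining 15 were not detected, among them the proton sensors Gpr4 and Gpr65, the lactate receptor Gpr81 (Hcar1) and the estrogen-binding Gpr30 (Gper1).

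Of 48 other receptors named Gpr, 6 were measured. Gpr176, an orphan known from the circadian pacemaker of the brain, had -2.13 at passage 5 and -3.82, below background, at passage 20, at least 2.05-fold lower. Gpr39, a zinc sensor, had -1.55 and -2.22, a difference of -0.67. Gpr146 differed by -0.45, Gpr19 by 0.17 and Gpr152 by 0.57, and Gpr37l1 had a bound of 0.44. The single-array genes in this group rest on signals near the detection limit.

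Proteins that carry a Gpr name but reside in Golgi or lysosome membranes, or whose coupling to G proteins is not established, were detected in nearly every case. This grouping was made after the values were seen. Of 8 such genes 7 were above background on both arrays, and all 7 were within 2-fold. Gpr107 and Gpr108, of the Golgi, differed by -0.24 and 0.00. Gpr137, Gpr137b and Gpr155, of lysosomes, differed by -0.38, -0.22 and 0.16. Gpr89, of the Golgi, differed by 0.48 and Gpr180 by 0.46. The probes of Gpr107 ranged from -0.24 to a bound of 0.80. The rule also took a pair of receptor kinases, Adrbk1 (now Grk2), at 2.55 and 2.54, and Adrbk2 (Grk3), not detected, and the serotonin-gated channels Htr3a and Htr3b, also not detected.

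**Figure D4:**
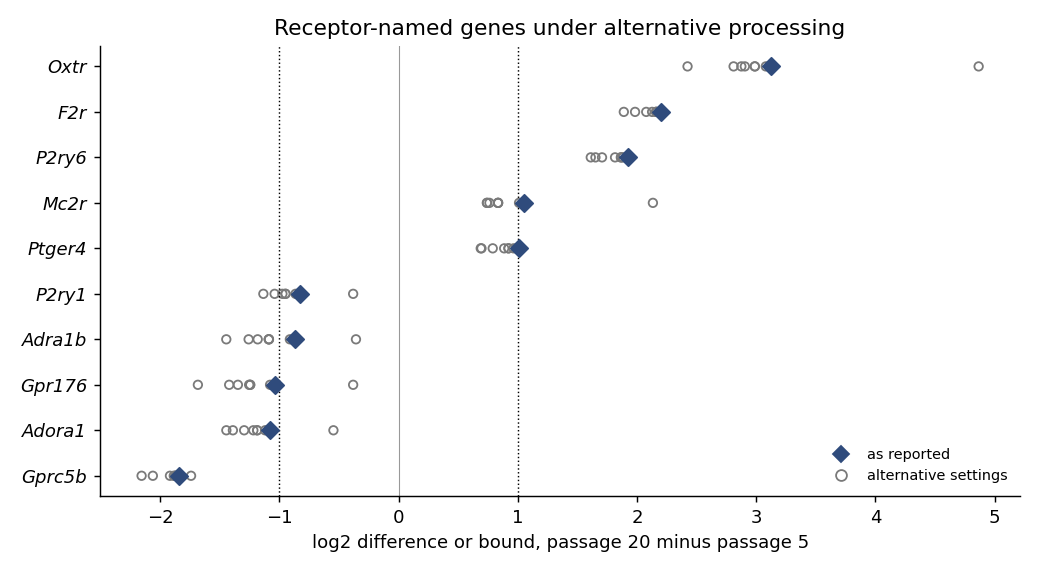
Log2 difference or bound (x axis) of the 8 receptor genes past 2-fold, with P2ry1 and Adra1b just short of it, as reported (diamonds) and under alternative processing (circles). The dotted lines mark 2-fold; all symbols of F2r, P2ry6, Oxtr and Gprc5b lie beyond them, and those of Ptger4, Mc2r, Adora1 and Gpr176 lie on both sides.

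Genes that act with the receptors were measured in a larger share than the receptor genes, close to that of the whole array. In 9 lists of G proteins, enzymes, regulators, response genes and ligands, 79 of 132 genes (59.8%) were above background. Among all named genes 58.8% were measured. Of the 79 measured, 5 were 2-fold higher and 10 lower, 19.0% in either direction against 9.00% of all measured genes. Their median difference was -0.01. The lists were chosen with earlier results of these data known, so these shares are a description only. Of 10 measured G alpha subunits only Gna14, of the Gq class, was 2-fold different: its levels were -1.03 and -3.03, 4.02-fold lower at passage 20. Gnas, the Gs subunit, differed by -0.67, by 2 of its 8 probes. Gnaq, Gna11, Gnai2 and Gnai3 differed by -0.12, -0.31, 0.26 and 0.23. None of 9 measured beta and gamma subunits, 3 adenylyl cyclases, 5 phospholipase C and IP3 receptor genes or 6 receptor kinases and arrestins was 2-fold different. Their largest differences were -0.81 for Gng11, 0.48 for Adcy1, -0.56 for Plcb1 (its probes down to -1.05) and -0.89 for Arrb1, whose other probe gave 0.45. Prkacb, a catalytic subunit of the kinase that cyclic AMP activates, was 3.66-fold higher by its brighter probe (-1.43 and 0.44), but its other probe gave -0.21.

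Genes known to be induced by cyclic AMP and calcium were lower at passage 20 in 5 of 10 measured cases and higher in 1, where 5.74% of all measured genes were lower and 3.26% higher. The list median was -1.10, against 0.07 for all measured genes. This list was chosen with earlier results of these data known, so its share and median are a description only. Over the alternatives 5 to 7 were lower and the median lay between -1.41 and -0.78. The nuclear receptor gene Nr4a1 had levels of 4.74 and 1.79, 7.72-fold lower, and its relative Nr4a2 had 2.32 and 0.36, 3.89-fold lower. Rgs2, an RGS protein that acts on Gq, had -0.78 and -2.66, 3.69-fold lower, by 1 of its 3 probes. Ppargc1a, a coactivator of gluconeogenic genes, was 3.13-fold lower (-0.09 and -1.74; its other probe -1.17), and the clock gene Per1 2.68-fold lower (0.30 and -1.12). Fos was 2.33-fold higher (-1.82 and -0.60), past 2-fold in 9 of 11 alternatives. Crem, Sik1, Rcan1 and Pde4d differed by 0.59, -0.76, -0.78 and 0.12. Of the RGS proteins beside Rgs2, Rgs13 was at least 2.47-fold higher and Rgs17 at least 2.16-fold lower, both bounds. Rgs13 passed 2-fold in 8 of 10 alternatives and Rgs17 in 9 of 10. Of the 8 RGS genes measured 4 were within 2-fold, and Rgs16 had a bound of 0.36.

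**Figure D5:**
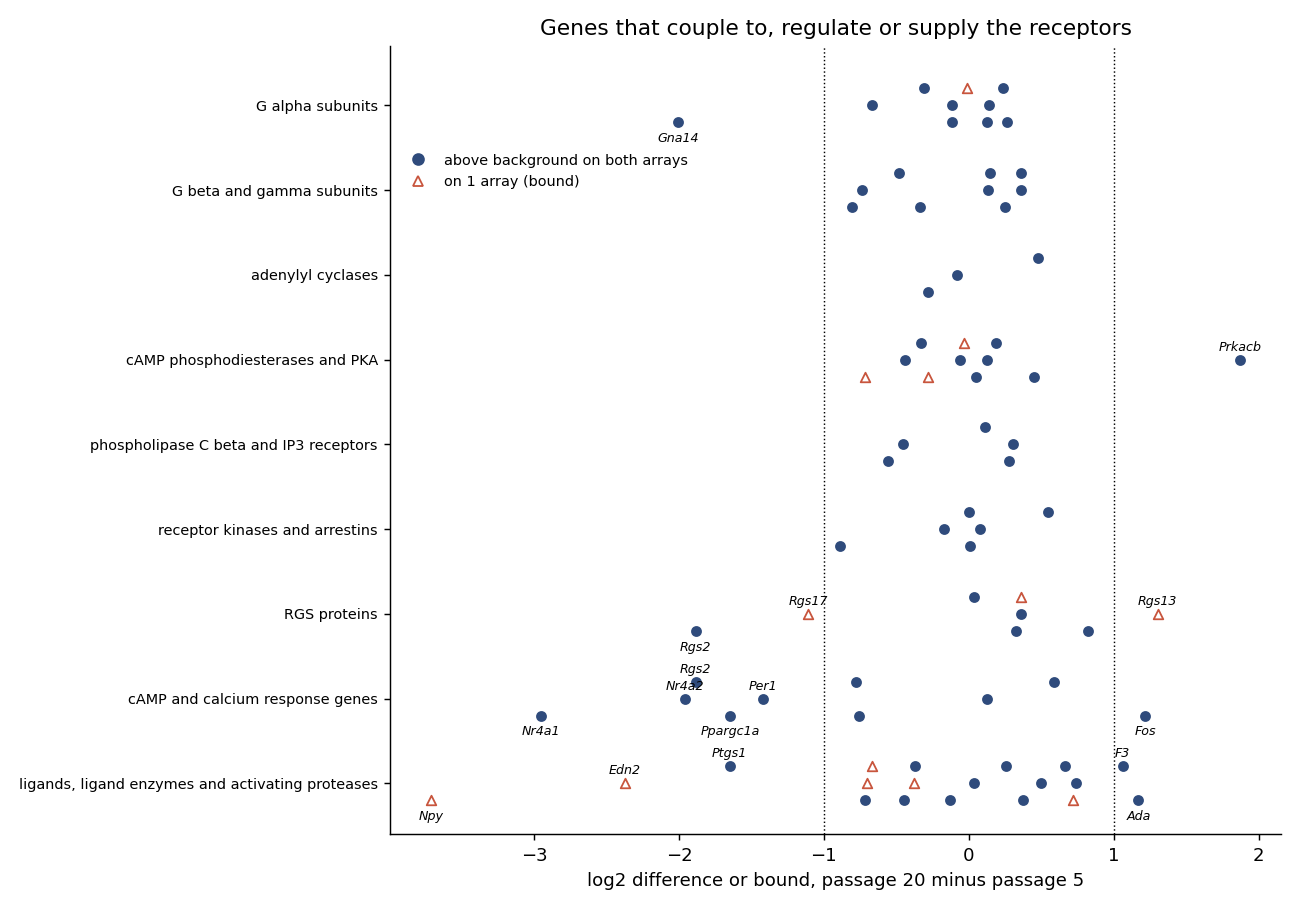
Log2 difference, passage 20 minus passage 5 (x axis), of each measured gene in 9 lists of genes that couple to, regulate or supply the receptors (y axis); triangles are bounds, dotted lines mark 2-fold, and small vertical offsets only separate points. The cyclic AMP and calcium response genes spread to the left, with Nr4a1 lowest at -2.95, while most subunits lie between the lines.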

How the data were processed

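RNA of both cultures was put on 1 Agilent array each with Cy3 label, per the labels' protocols; both arrays shared 1 slide and 1 scan. Spot intensity was made by the authors with Feature Extraction 10.7.3.1 (background-subtracted, detrended), per the file headers. The authors' deposited log2 values, quantile normalized as far as the values show (r = 0.99987 and 0.99986 with the log2 scanner signal; tool not given in the sources used here), served as an alternative. Members and lists were chosen with earlier results of these data known.

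Outlier-flagged spots (73 and 69; none of a receptor probe) and control spots were left out, log2 signals averaged per probe, and each array's 75th percentile (signals of 1085 and 853) subtracted. A gene took its brightest probe. No spot was saturated (0). Of the receptor probes, 208 were named by accession, 28 by symbol and 5 by an older symbol in the RefSeq table of GRCm38.p6. Probe positions are in mm9, for which no annotation was used here, so exon or UTR is not stated. With 1 array per group no test was possible, and the number of arrays limits the precision. Named were all genes past 2-fold, measured members of families with a known ligand, adhesion, class C and metabolite receptors, and up to 4 genes of each coupling list; other genes of those lists and other Gpr genes were named after their values were seen. The steps were tested on simulated data (R 4.3.3, limma 3.58.1, Python 3.11.15). A few genes are counted in the totals but not reported here by name.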

Additional observations from a re-analysis of the deposited data

How the results depend on the processing

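No paired analysis was possible because each passage has 1 array, and leaving out a replicate was not possible either. Counts of receptor genes (5 higher, 3 lower) were 3 and 1 with normexp, 3 and 4 with quantile normalization and with the authors' values, 3 and 5 with median centring, loess and spike-in scaling, 3 and 2 with both arrays above background, 20 and 9 with no filter on dim probes (167 genes), 8 and 7 at 1.5-fold and 2 and 0 at 4-fold. Their median (0.14) was -0.17 with median centring and -0.076 with spike-in scaling, which move the median of all measured genes from 0.07 to -0.24 and -0.15. The share of higher genes among all 2-fold different ones (36.3%) was 14.6% and 19.2% under these, 23.0% with loess, 27.3% with quantile normalization and the authors' values, and 50% with no filter. The 15 coupling genes became 31 with no filter, 30 at 1.5-fold and 4 at 4-fold. No 2-fold receptor gene turned its sign. Of 40 measured genes, 11 smaller differences did in at least 1 alternative. Of 428 single-gene values, 264 moved by less than 0.165 log2, the 95th percentile of the repeat-spot SD. Signal near background limits most members.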

Other observations

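Receptors outside the name rule were also mostly not detected; these lists were drawn up after values of these data had been seen. Of 14 class B peptide hormone receptors, Vipr1, for vasoactive intestinal peptide, differed by 0.49 and Adcyap1r1 had a bound of 0.61, while the secretin receptor Sctr, known from bile ducts, and the glucagon receptor Gcgr of hepatocytes were not detected. Of 14 vasoactive and gut peptide receptors only Bdkrb1, a bradykinin receptor, was measured (-2.76 and -2.52, a difference of 0.24). None of 4 other prostanoid receptors was detected, nor any of 8 receptors for bile acids, histamine, dopamine, cannabinoids and calcium, among them the bile acid receptor Gpbar1. Ramp1 and Ramp3, partner proteins that set the ligand of calcitonin-type receptors, were measured at -0.06 and 0.19 and at 2.61 and 2.02, differences of 0.24 and -0.59, with the other probe of Ramp1 at -0.74, and Calcr and Calcrl, receptors they pair with, were not detected.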
